A study of Saccharomyces cerevisiae with 7 samples.

Results

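The comparison described here set *rps3* cells against *dom34Δ* cells, position by position, along PGK1 reporters that carried a run of 12 CGA or 12 AAA codons. It used 4 of the 7 libraries of the series, which were *rps3* and *dom34Δ* with (CGA)12 and *rps3* and *dom34Δ* with (AAA)12, chosen by their strain and reporter labels and not by any measured value. Each library was a count of reads whose 3’-end fell on each position of the reporter. The authors used these ends to map the 5’-fragments that no-go decay leaves behind. Total RNA was ligated, and ends from other sources were not told apart from them. Positions 606 to 950 in the authors’ numbering were kept, which are 345 positions that end at the codon repeat. Each count was expressed as a share of the library’s reads in that span.

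All strains were BY4741 derivatives that lacked *SKI2*, so that deletion was common to both sides of each comparison. The *dom34Δ* strain lacked *DOM34* in addition. The *rps3* strain carried R116A/R117A in place of the wild-type protein sequence. The reporters were driven by the *GAL1* promoter, and cells were grown in medium without uracil, with 2% galactose and 2% raffinose, to an OD of 0.8. Each library was 1 preparation from RNA of at least 2 biological replicates that had been pooled, so no spread between replicates was available, no difference was tested, and strain and preparation cannot be told apart. Cells that lacked *SKI2* alone were not analysed here, and *asc1* cells, with *RPS3* and *DOM34* unaltered, were measured with the stem loop only. With the codon repeats, a position high in *dom34Δ* cells and a position low in *rps3* cells therefore cannot be told apart.

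In no-go decay a ribosome that stalls on an mRNA is followed by others that queue behind it, and the mRNA is cut near the stalled ribosomes. Dom34 (YNL001W) acts with Hbs1 to split stalled ribosomes, above all those at the 3’-end of a truncated mRNA. Rps3 (YNL178W) is a small-subunit protein that lines the tunnel through which mRNA enters the ribosome. Ski2 (YLR398C) is a helicase that feeds RNA to the cytoplasmic exosome, and without it the 5’-fragments persist and their 3’-ends can be mapped. CGA codons encode arginine and are decoded poorly in yeast, and runs of AAA codons encode lysine and also stall ribosomes. PGK1 (YCR012W) encodes a glycolytic enzyme, and its gene lies on chromosome III at 137746 to 138996 in the R64 assembly. The reporter’s positions are numbered on the reporter and not on the chromosome.

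The 4 libraries differed in depth by strain. The *rps3* libraries held 639545 reads in the span with (CGA)12 and 601326 with (AAA)12, and the *dom34Δ* libraries held 2113497 and 2609548. The span took between 98.7% and 99.3% of each library. Every one of the 345 positions had reads in all 4 libraries, and the lowest count was 6 reads, in *rps3* with (CGA)12. The median position had 741 reads in *rps3* and 3457 in *dom34Δ* with (CGA)12, and 751 and 4038 with (AAA)12. Intervals below are 95% intervals (Wilson for a share, Newcombe for a difference of shares) and take in the counting error of reads alone. The reads were amplified by PCR and carried no molecular identifiers to mark copies of 1 fragment. The intervals can therefore be too narrow for counts of fragments.

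**Figure D1:**
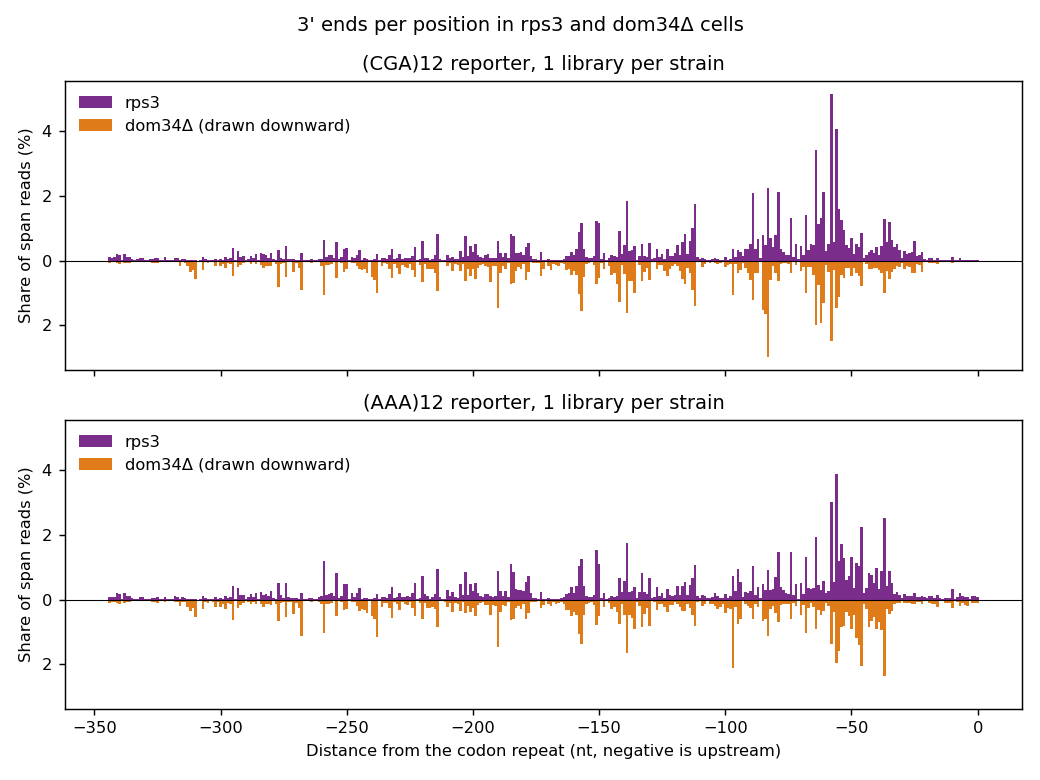
Share of the span’s reads (%, vertical axis) at each position against its distance from the codon repeat (nt, horizontal axis), for *rps3* (bars upward) and *dom34Δ* (bars drawn downward) with each reporter, 1 library per strain. Most of the tall bars occur at the same positions in both strains, and the *rps3* bars are taller close to the repeat, up to 5.13% at 58 nt.

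The strains differed at many positions, and mostly in the same direction with both codon repeats. With (CGA)12 the share was higher in *rps3* than in *dom34Δ* at 157 positions (45.5% of all) and lower at 188 (54.5%). With (AAA)12 it was higher at 163 positions (47.2%) and lower at 182 (52.8%). At 137 positions the *rps3* share was higher with both reporters and at 162 it was lower with both, so 299 of 345 positions (86.7%) had the same sign. The log2 ratios of *rps3* over *dom34Δ*, with 1 read added to each count, correlated across the 345 positions with a Pearson r of 0.94 and a Spearman rho of 0.90. The positions lie on one mRNA, neighbours share local sequence, and the 2 ratios come from separate pairs of libraries made with the same primer.

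At the remaining 46 positions the sign was opposite. At 20 of these the *rps3* share was higher with (CGA)12 and lower with (AAA)12, and at 26 the reverse was found. Their differences were small with at least 1 reporter, since the smaller of the 2 absolute log2 ratios did not exceed 0.42 at any of them. No position was 2-fold or more higher with one reporter and 2-fold or more lower with the other.

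The 2 directions were not alike in size. The share was at least 2-fold lower in *rps3* at 90 positions (26.1%) with (CGA)12 and at 72 (20.9%) with (AAA)12, and 67 positions were past this fold with both. It was at least 2-fold higher at 36 positions (10.4%) with (CGA)12 and at 17 (4.93%) with (AAA)12, and 15 positions were past it with both. Differences of at least 4-fold with both reporters were found at 28 positions, all of them lower in *rps3*, and 16 of these were past 8-fold and 8 past 16-fold. The log2 ratio ranged from -6.50 to 2.06 with (CGA)12, with a median of -0.11, and from -5.36 to 1.61 with (AAA)12, with a median of -0.06. The count of 15 higher positions depended on the scale, since it was 6 when the 6 runs of low positions described below were left out of the span, and only 1 sum of 3 neighbouring positions was past 2-fold higher with both.

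**Figure D2:**
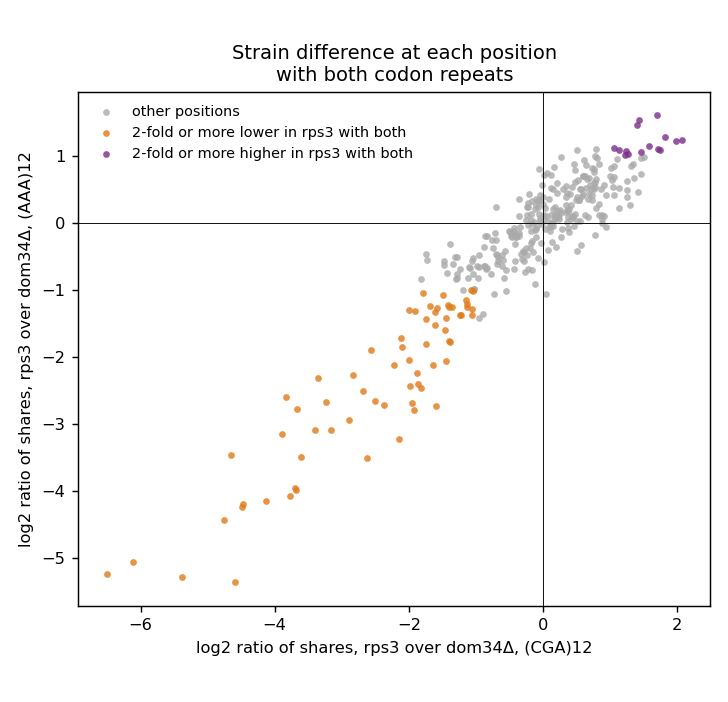
The log2 ratio of shares (*rps3* over *dom34Δ*) with (AAA)12 on the vertical axis against that with (CGA)12 on the horizontal axis, each point 1 of 345 positions. Orange points are the 67 positions at least 2-fold lower in *rps3* with both reporters, purple points the 15 at least 2-fold higher with both, and the lower-left arm reaches farther from 0 than the upper-right arm.

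Within 90 nt of the repeat, *rps3* cells had more of their 3’-ends than *dom34Δ* cells with both reporters. These 90 positions held 52.9% of the reads in *rps3* (interval 52.8 to 53.0) and 36.5% in *dom34Δ* (36.4 to 36.6) with (CGA)12. With (AAA)12 they held 47.6% (47.5 to 47.7) and 37.1% (37.1 to 37.2). The gap was thus 16.4 percentage points with (CGA)12 and 10.5 with (AAA)12. With the 6 runs of low positions described below left out of the span, it was 13.3 and 6.32. None of those runs lies within 90 nt, so that change came from rescaling of the shares alone. Of the 90 positions, 67 were higher in *rps3* with (CGA)12 and 63 with (AAA)12, against 90 and 100 of the 255 positions farther upstream.

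The gain close to the repeat lay in the windows from 30 to 89 nt upstream and not at the repeat itself. In the window from 891 to 920, *rps3* had 24.8% and *dom34Δ* 14.2% with (CGA)12, a difference of 10.5 points (10.4 to 10.7). With (AAA)12 the same window had 28.96% and 22.9%, a difference of 6.11 points (5.98 to 6.23). These differences rested in part on the tallest sites. They were 6.29 and 3.43 points when the highest position of each library was left out of all 4 libraries. Without the 6 runs, none of which lies in this window, they were 9.39 and 3.54 points through rescaling of the shares alone. The next window, from 861 to 890, had 25.2% in *rps3* against 19.4% in *dom34Δ* with (CGA)12 and 15.7% against 10.9% with (AAA)12. In the last 30 nt, from 921 to 950, where few ends lay in any library, the 2 strains were nearly level at 2.93% and 2.86% with (CGA)12, while with (AAA)12 the *rps3* share of 2.93% was below the 3.38% of *dom34Δ*.

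Farther upstream the shares were mostly lower in *rps3*. From 711 to 740, *rps3* had 4.26% and *dom34Δ* 8.25% with (CGA)12, and 5.06% and 7.91% with (AAA)12. The largest relative loss was in the window from 621 to 650, where the *rps3* share was 0.357 of the *dom34Δ* share with (CGA)12 and 0.309 with (AAA)12. Nearly all of it lay in the runs at 637 to 643 and 645 to 652, since without the runs the window’s difference went from -1.95 to -0.09 points with (CGA)12 and from -2.39 to -0.43 with (AAA)12. The middle of the span showed little difference with (AAA)12, where the window from 771 to 800 differed by -0.05 points with an interval (-0.13 to 0.03) that included 0, and that from 741 to 770 was 0.31 points higher in *rps3* but 2.23 points lower with (CGA)12. No run lies in the latter window, but leaving out the runs rescales the shares, and its difference with (AAA)12 was then -0.73 points. In all, 3 of the 12 windows were higher in *rps3* with both reporters, 7 were lower with both and 2 had opposite signs, and 5 were lower with both when counts were capped or the highest position of each library was left out.

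The loss upstream did not extend to the start of the span. In the 15 positions from 606 to 620, next to the primer, *rps3* had 1.38% and *dom34Δ* 0.70% with (CGA)12, and 1.27% and 0.91% with (AAA)12. Of these 15 positions, 15 were higher in *rps3* with (CGA)12 and 14 with (AAA)12. They adjoin the window of the largest relative loss. These are the shortest products that the primer at 585 could give, and the part that product length played in their counts was not tested.

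**Figure D3:**
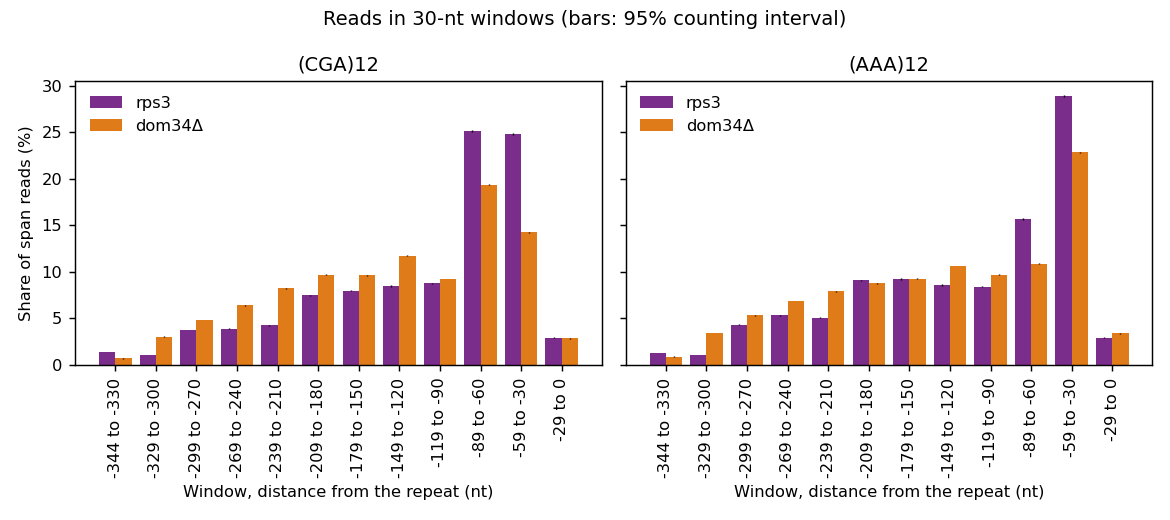
Share of the span’s reads (%, vertical axis) in windows of 30 nt (15 nt for the farthest) against their distance from the repeat (nt, horizontal axis), in *rps3* (purple) and *dom34Δ* (orange) with each reporter, 1 library each, and error bars for the 95% counting interval. The *rps3* bars are higher from 30 to 89 nt, where *rps3* reached 25.2% and 24.8% per window with (CGA)12, and lower in most windows beyond.

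The difference did not rest on window totals alone. When each count was taken as a share of its own 30-nt window, which removes the difference between windows, 294 of 345 positions (85.2%) still had the same sign with both reporters. The ratios then correlated with r = 0.94, a description over the same 345 positions.

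Among the positions with higher shares in *rps3*, those at 892 and 894, 58 and 56 nt upstream of the repeat, held the most reads. Position 892 had 32828 reads (5.13%) in *rps3* and 52346 (2.48%) in *dom34Δ* with (CGA)12, and 18082 (3.01%) and 36034 (1.38%) with (AAA)12. Position 894 had 4.05% in *rps3* and 1.47% in *dom34Δ* with (CGA)12, and 3.86% and 1.97% with (AAA)12. Both sites were thus among the taller ones of *dom34Δ* and higher still in *rps3*, with log2 ratios of 1.05 and 1.122 at 892 and of 1.46 and 0.97 at 894. Position 886 had 3.42% against 1.98% with (CGA)12 and 1.93% against 0.903% with (AAA)12, and position 896 had 1.27% against 0.446% and 1.70% against 0.860%.

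A second cluster of higher positions lay 72 to 79 nt upstream. Position 871 had 2.11% in *rps3* and 0.646% in *dom34Δ* with (CGA)12, and 1.45% and 0.678% with (AAA)12. Its neighbours 872 and 873 were higher too, and the 3 positions together, the longest run past 2-fold higher with both reporters, held 2.73% against 0.815% and 2.13% against 0.984%. Positions 876 and 878 had log2 ratios of 1.81 and 1.98 with (CGA)12 and of 1.29 and 1.23 with (AAA)12. Here the ratio was larger with (CGA)12 than with (AAA)12 at each of these 5 positions, a difference that was not tested.

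Of the other named positions on the high side, 831 (119 nt upstream) had log2 ratios of 1.43 and 1.53, 884 of 1.40 and 1.46, and 918 of 1.57 and 1.14. Position 773, at 177 nt, had the largest smaller ratio of all higher positions, 1.70 with (CGA)12 and 1.61 with (AAA)12. Its shares were low in both strains, 0.155% against 0.048% and 0.202% against 0.066%. Positions 799 and 800, 151 and 150 nt upstream, had 1.23% and 1.17% in *rps3* against 0.721% and 0.535% in *dom34Δ* with (CGA)12, and 1.53% and 1.11% against 0.771% and 0.520% with (AAA)12. Position 861 had log2 ratios of 0.76 and 0.81. The 15 positions past 2-fold with both reporters held 13.0% of the *rps3* reads and 5.13% of the *dom34Δ* reads with (CGA)12, and 9.76% and 4.32% with (AAA)12. Of these, 8 lay among the 90 positions within 90 nt of the repeat and 7 among the 255 positions beyond.

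Some of the tallest sites hardly differed between the strains. Position 811 had 1.83% in *rps3* and 1.63% in *dom34Δ* with (CGA)12 and 1.76% and 1.64% with (AAA)12. Positions 904 and 913, among the 5 highest of both (AAA)12 libraries, had log2 ratios of 0.12 and 0.09 with that reporter. Position 867, the highest of *dom34Δ* with (CGA)12 at 2.96%, had 2.23% in *rps3*, and position 888 was lower in *rps3* by a log2 ratio of -0.55 with (CGA)12 and -0.69 with (AAA)12. The strain differences were therefore not a uniform scaling of the sites close to the repeat, where 892 and 888 differed in opposite directions.

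The positions lower in *rps3* were arranged differently. Of the 67 that were past 2-fold with both reporters, 63 lay among the 255 of 345 positions at least 90 nt upstream, and many were adjacent. They formed 23 runs, and 6 of these were 6 to 8 positions long, at 637 to 643, 645 to 652, 679 to 684, 706 to 713, 778 to 785 and 848 to 853. The positions higher by the same fold formed 12 runs of at most 3. The 6 long runs, 43 positions in all, held 1.91% of the *rps3* reads and 10.3% of the *dom34Δ* reads with (CGA)12, and 2.47% and 12.6% with (AAA)12, so *dom34Δ* exceeded *rps3* there 5.39-fold and 5.12-fold. A minimum length of 6 was chosen after the ratios had been seen.

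The run at 637 to 643, 307 to 313 nt upstream of the repeat, had the largest ratios. It held 975 reads (0.152%) in *rps3* and 35824 (1.70%) in *dom34Δ* with (CGA)12, and 922 (0.153%) and 43774 (1.68%) with (AAA)12. At position 638 the counts were 25 in *rps3* and 7763 in *dom34Δ* with (CGA)12, and 53 and 8807 with (AAA)12, which gave log2 ratios of -6.50 (counting interval -7.05 to -5.94) and -5.23 (-5.62 to -4.85). Position 640 held 0.559% and 0.549% in *dom34Δ* with the 2 reporters and 0.013% and 0.014% in *rps3*. The *dom34Δ* libraries thus had a block of ends here that the *rps3* libraries had at a far lower level, though with reads at every position.

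The next run, at 645 to 652, began after 1 position and was shallower, with *dom34Δ* over *rps3* at 3.10-fold with (CGA)12 and 3.65-fold with (AAA)12. The run at 706 to 713 held the most *dom34Δ* reads of the 6 with (CGA)12, 3.13% in *dom34Δ* and 0.416% in *rps3*, and with (AAA)12 it held 3.37% and 0.351%. Its tallest site, 712, had 0.986% in *dom34Δ* and 0.190% in *rps3* with (CGA)12, and 1.16% and 0.177% with (AAA)12, while at 710 the log2 ratios were -4.75 and -4.42. In these runs the ratio was not the same at every position, and the site with most reads was not the one that differed most.

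The run at 778 to 785 held 1.28% in *dom34Δ* and 0.151% in *rps3* with (CGA)12, and 0.943% and 0.153% with (AAA)12. The run at 679 to 684 differed 4.81-fold and 5.93-fold, with position 682 at 0.924% and 1.14% in *dom34Δ* and at 0.235% and 0.212% in *rps3*. The run at 848 to 853 was closest to the repeat, 97 to 102 nt upstream, and its ratio was the smallest, 2.95-fold with (CGA)12 and 3-fold with (AAA)12. Its last position, 853, was among the 5 highest of *dom34Δ* with (AAA)12 at 2.12%, against 0.737% in *rps3*, and had 1.07% and 0.349% with (CGA)12.

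Of the 24 lower positions outside the long runs, 12 stood alone and 12 lay in runs of 2 or 3. Position 634 had log2 ratios of -3.69 and -3.95, and 866, 84 nt upstream and next to the tallest *dom34Δ* site, had 1.64% in *dom34Δ* and 0.472% in *rps3* with (CGA)12 and 0.590% and 0.287% with (AAA)12. Position 760 was past 2-fold with (CGA)12 only, with log2 ratios of -1.29 and -0.76. The 67 positions together held 4.18% of the *rps3* reads and 18.0% of the *dom34Δ* reads with (CGA)12, and 4.60% and 18.6% with (AAA)12.

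**Figure D4:**
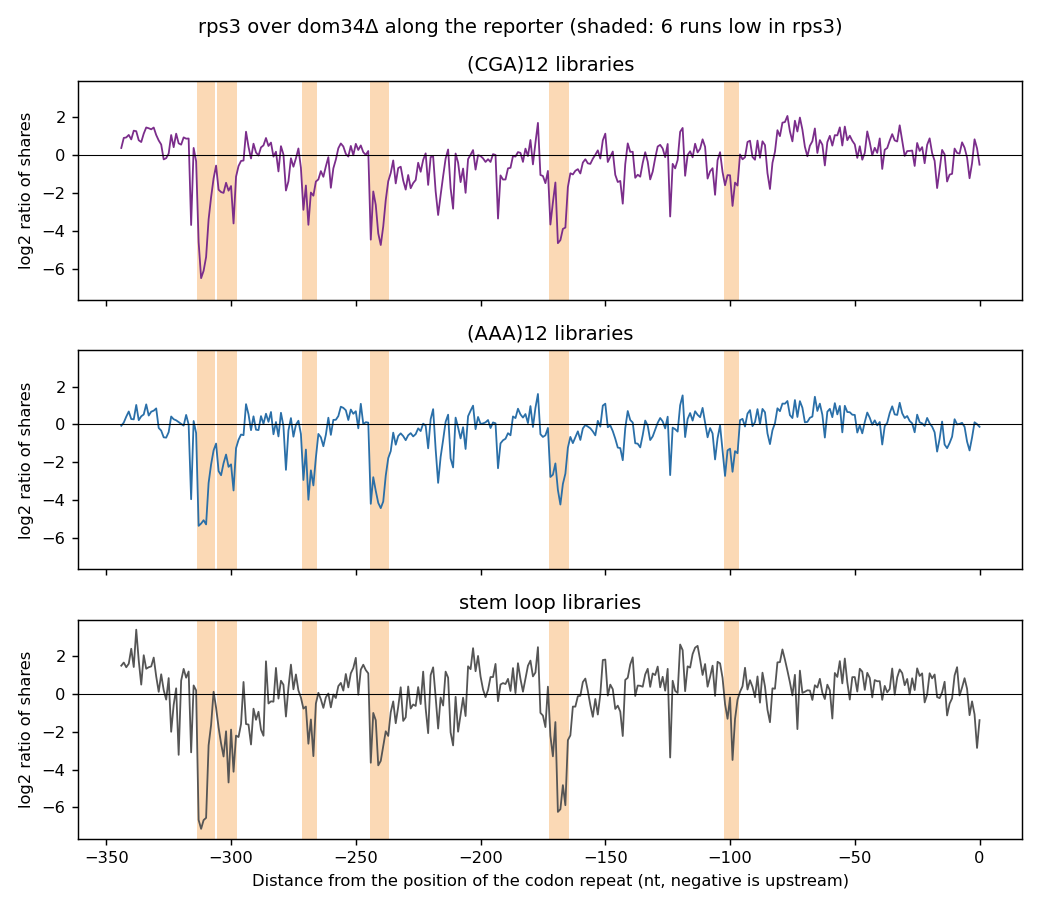
The log2 ratio of shares (*rps3* over *dom34Δ*, vertical axis) at each position against its distance from the position of the codon repeat (nt, horizontal axis) for (CGA)12, (AAA)12 and the stem loop, 1 pair of libraries each. Shading marks the 6 runs of 6 or more positions at least 2-fold lower in *rps3* with both codon repeats, and the stem-loop ratio, which was not used to choose them, is also low in each, by 1.74-fold to 17.6-fold.

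The reporter with a stem loop offered libraries that had played no part in choosing these positions. Its stall lies 90 nt past that of the codon repeats, so a place on PGK1 and a distance from the stall are different things between the reporters. At the same PGK1 positions, 63 of the 67 lower positions were also lower in *rps3* with the stem loop, where 41.7% of all 345 positions were lower, and 49 of them at least 2-fold, where 21.4% of all were. Of the 15 higher positions, 14 were also higher, against 58.3% of all positions, and 13 of them at least 2-fold, against 25.2%. The median log2 ratio with the stem loop was -1.89 over the 67 and 1.32 over the 15. The 6 runs together held 6.16% of the *rps3* reads and 26.3% of the *dom34Δ* reads of that reporter, 4.27-fold.

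The run at 637 to 643 held 0.502% in *rps3* and 5.91% in *dom34Δ* with the stem loop, 11.8-fold, beside 11.1-fold with (CGA)12 and 10.9-fold with (AAA)12. The run at 778 to 785 held 0.169% and 2.98%, 17.6-fold, and that at 706 to 713 held 1.15% and 5.30%, 4.62-fold. The smallest ratio was again in the run at 848 to 853, at 1.74-fold. Of the 43 positions in the runs, which were chosen from the codon repeats alone, 42 were lower in *rps3* with the stem loop and 36 at least 2-fold. The same stretches of PGK1 were thus low with the stem loop, at distances from the stall 90 nt greater.

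Over the 345 positions the ratios were also set against each other by place and by distance. At the same PGK1 position, the log2 ratios with the stem loop correlated with those of (CGA)12 at r = 0.78 and of (AAA)12 at r = 0.80, and the sign was shared at 71.6% and 72.8% of the 345 positions. At the same distance from the stall, r was 0.014 with (CGA)12 and -0.001 with (AAA)12, and 54.2% and 52.5% shared the sign. The 2 matches did not use the same stem-loop positions. By distance, the stem-loop ratios came from 90 nt farther along PGK1, so the stretch with the runs from 637 to 684 dropped out. The 90 positions nearest the repeat were set against stem-loop positions past 950. Only 2.47% of all *dom34Δ* reads and 5.17% of all *rps3* reads of that reporter ended past 950. The correlations are descriptions, since positions share the primer and local sequence and the same fragments of PGK1 lie in all 3 reporters.

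**Figure D5:**
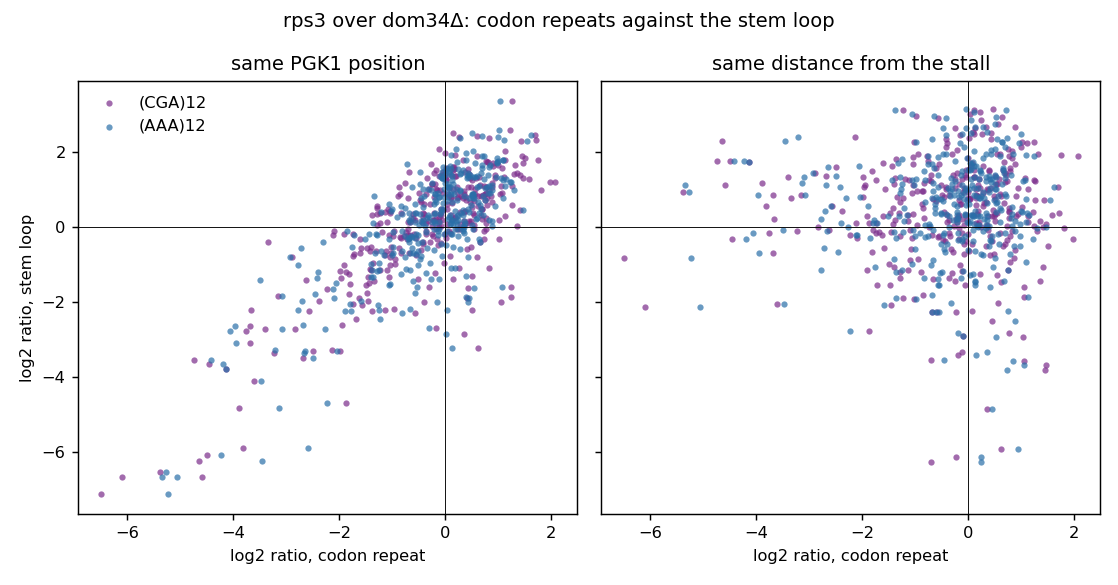
The log2 ratio of shares (*rps3* over *dom34Δ*) with the stem loop on the vertical axis against that with (CGA)12 (purple) or (AAA)12 (blue) on the horizontal axis, each point 1 of 345 positions, matched by PGK1 position (left) or by distance from the stall (right). The points follow a line on the left, with r of 0.78 and 0.80, and form a cloud with no slope on the right. The right panel takes the stem-loop ratios from 90 nt farther along PGK1, in part past the span, where few reads ended.

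A strain with an altered ribosome-associated protein, Asc1, was measured with the stem loop only. In *asc1* (R38D/K40E) cells, which also lacked *SKI2*, the share of reads in the 6 runs was 2.61%, below the 6.16% of *rps3* and the 26.3% of *dom34Δ* with that reporter. The run at 637 to 643 held 0.114% in *asc1* cells. All 3 *dom34Δ* libraries had larger shares there (1.68% to 5.91%) than any of the 4 other libraries (0.114% to 0.502%). The same separation was seen at 679 to 684, 706 to 713 and 778 to 785. It was not seen at 645 to 652, where *rps3* with the stem loop had 0.958% and *dom34Δ* with the CGA repeat 0.911%. Nor was it seen at 848 to 853, where the same libraries had 2.26% and 1.64%. The 15 higher positions held 9.46% of the *asc1* reads, 5.58% of the *rps3* reads and 1.53% of the *dom34Δ* reads with the stem loop. Each comparison with the stem loop used the same *dom34Δ* library.

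The profiles of the 2 strains were compared as wholes by the share of reads that would have to be moved to make one profile the other. Between *rps3* and *dom34Δ* this was 25.9% with (CGA)12 and 21.9% with (AAA)12. Between the 2 reporters it was 19.1% within *rps3* and 20.03% within *dom34Δ*. The log2 shares correlated more closely within a strain, at 0.95 in *rps3* and 0.91 in *dom34Δ*, than between strains, at 0.77 with (CGA)12 and 0.78 with (AAA)12 (345 positions each). The 2 reporters of a strain thus differed somewhat less than the 2 strains with a reporter, by both measures.

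Some spacing was seen in the ratio along PGK1. The 6 long runs as a whole were not evenly spaced, with 8.5, 33 and 28 nt between the centres of the first 4. The centres of 4 of the 6, picked after they had been seen, at 637 to 643, 706 to 713, 778 to 785 and 848 to 853, lay 69.5, 72 and 69 nt apart. After a running median over 31 positions had been subtracted, the log2 ratio correlated with itself most closely at a lag of 72 nt with (CGA)12 (0.37), at 69 nt with (AAA)12 (0.38) and at 72 nt with the stem loop (0.31), among lags of 10 to 100 nt. The 6 runs lie among the positions that give these values, so the lags and the spacing are not separate observations.

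By position within the triplet, the strains differed by a few percentage points. Positions whose number leaves a remainder of 1 on division by 3 held the most reads in all 4 libraries, with 45.5% in *rps3* and 47.6% in *dom34Δ* with (CGA)12 and 44.98% and 48.7% with (AAA)12. The share was thus lower in *rps3*, with *rps3* minus *dom34Δ* at -2.05 and -3.77 points. These values depended on the tallest and the lowest sites. With (CGA)12 the difference was -4.48 with capped counts, -3.10 with the highest position of each library left out and -1.22 without the 6 runs. With (AAA)12 it was -3.10, -4.32 and -2.76 points at the same settings. Beyond 90 nt the difference was -3.27 and -4.06 points, and within 90 nt it was 1.77 points with (CGA)12 and -1.48 with (AAA)12. Which of the remainders is the first base of a codon was not settled from the files.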

How the data were processed

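The authors ligated an adenylated oligonucleotide to the 3’-ends of total RNA, amplified the cDNA with a primer at position 585 of PGK1 and sequenced it on an Illumina HiSeq. The reference for alignment was the authors’ own reporter sequence, and NovoAlign was the aligner. Adaptors were removed with cutadapt, and read quality was examined with the Fastx toolkit. Versions listed by the submitters’ processing notes are 1.12 for cutadapt and 1.13 for SAMtools, with none for bedtools. For the aligner’s settings and any removal of duplicates, nothing is given in the sources used here. The deposited counts of read ends are whole numbers with no normalization, and a position not listed was taken as 0.

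Shares of the span’s reads were computed in Python 3.11.15 with NumPy 2.4.6, pandas 2.3.3 and SciPy 1.17.1, and drawn with matplotlib 3.10.9. Positions needed 10 reads in 1 or more of the 4 libraries, which all 345 had, and 1 read was added to each count before the log2 ratio. A share of 3 reads was 0.000469% in *rps3* with (CGA)12 and 0.000499% with (AAA)12. The positions named are the 10 largest differences per reporter, the 5 highest shares per library, and up to 10 higher and 10 lower positions past 2-fold with both reporters that held at least 0.1% in any of the 4 libraries, by the smaller absolute log2 ratio. Runs of positions were named as ranges. The counting was tested on simulated data. The members, windows and rules were chosen with earlier results of these data known. The base at the 3’-end was not analysed here, since no reporter sequence was used. Amplification of products of different lengths can alter counts along the span.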

Additional observations from a re-analysis of the deposited data

Results flagged for a closer look

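In 2 windows *rps3* minus *dom34Δ* had opposite signs with the codon repeats. From 921 to 950 the difference was 0.070 percentage points with (CGA)12 and -0.45 with (AAA)12. From 741 to 770 it was -2.23 with (CGA)12 and 0.31 with (AAA)12. The difference between the reporters was not tested, since each value comes from 1 library per strain.

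Reads also ended past the position of the repeat, outside the span compared. There were 16737 in *dom34Δ* and 8557 in *rps3* with (CGA)12, which are 0.786% and 1.32% of all reads of the libraries. With (AAA)12 there were 18332 in *dom34Δ* and 4770 in *rps3*, which are 0.698% and 0.787%.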

How the results depend on the processing

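The share of positions with the same sign with both reporters lay between 79.8% (241 of 302 positions, with the 6 runs of low positions left out) and 89.0% (307, with log2 ratios centred on their median), and no setting gave a position past 2-fold in opposite directions. With sums of 3 neighbouring positions, 101 of 115 sums had the same sign, 102 within windows, 52 were higher in *rps3* with (CGA)12 and 56 with (AAA)12, and 1 and 20 were past 2-fold higher and lower with both. A fold of 1.5 gave 45 higher positions, and a fold of 4 gave 0 higher and 28 lower. Without the 6 runs 6 positions were higher and 29 lower past 2-fold. Windows of 20 nt gave 6 higher and 11 lower with both reporters. The sign turned in the window from 921 to 950 with (CGA)12 (-0.20 points without the runs), from 831 to 860 with (CGA)12 (0.050 without the highest position of each library) and with (AAA)12 (0.092 with capped counts, 0.28 without the runs), from 741 to 770 with (AAA)12 (-0.73 without the runs) and from 681 to 710 with (AAA)12 (0.72 without the runs). From 771 to 800 with (AAA)12, where the interval included 0, it was 0.14 with capped counts and 0.33 without the highest positions, and 5 windows were then lower with both reporters. Leaving out the runs rescales all shares to the reads that remain. None of the 6 runs lies from 921 to 950 or from 741 to 770, where rescaling alone turned the sign. Where the highest position of each library was left out, it was left out of all 4 libraries, so 341 positions remained. Centring, and leaving out the runs, were chosen after seeing the data. No paired analysis was possible because the libraries carry no replicate numbers. The reporter pairs the strains, and no test was run on these 2 pairs. The spread between preparations could not be measured, and depth limited the *rps3* ratios most at the lowest counts.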
